A study of Mus musculus with 3 samples.

Results

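The CC chemokines examined here were 10 genes chosen by symbol, namely Ccl2, Ccl3, Ccl4, Ccl5, Ccl6, Ccl7, Ccl8, Ccl9, Ccl12 and Ccl22, of 55536 annotated mouse genes, 22028 of them protein-coding. They were measured in total RNA-seq of 3 libraries of chromatin-bound RNA, which form 1 group. The cells were bone-marrow-derived macrophages (BMDM), phagocytes grown from marrow in culture, of C57BL/6J mice whose age and sex the labels do not give. All 3 libraries had the same schedule: Lipid A, the part of lipopolysaccharide that activates Toll-like receptor 4, at 100 ng/ml for 12 h, a washout of 12 h, and Lipid A at 100 ng/ml for another 40 min. The RNA was depleted of ribosomal RNA. Replicate 1 started from 1 µg of RNA, replicate 2 from 250 ng and replicate 3 from 500 ng. The 3 libraries carry biological replicate numbers but the same donor entry, so p-values measure only the spread between these samples, which may be technical. Libraries without Lipid A were not analysed here, and the values below are levels, not responses.

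CC chemokines are small secreted proteins with a pair of adjacent cysteines near the amino terminus. They guide monocytes, macrophages, T cells and other leukocytes through G protein-coupled receptors, and most of their genes lie in tandem arrays that grew by gene duplication. In macrophages, Toll-like receptor 4 turns on many of them through NF-kB and interferon regulatory factors, and chromatin-bound RNA is rich in transcripts that are still being made or spliced.

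Annotated genes received 13802716 expected counts in replicate 1, 17187524 in replicate 2 and 16502809 in replicate 3. A count of 0 would allow 3 counts, which is 0.217, 0.175 and 0.182 CPM, which relates a count to all counts of its library without regard to length. Levels are given as TPM, which divides counts by transcript length, scales them to a fixed total and makes genes comparable within a library. Protein-coding genes held 27.5%, 30.8% and 32.0% of the TPM of annotated genes in replicates 1, 2 and 3. The rest went to other genes, so TPM compared between libraries also depends on that part. Unless another table is named, values come from the gene tables that the authors made from an alignment to the transcriptome. A separate table that the authors made directly from the reads is named as such. All 10 macrophage markers checked were detected, among them Adgre1 at 368 ± 35.6 TPM (SD, n = 3), Lyz2 at 203 ± 34.5 TPM and Csf1r at 179.5 ± 17.5 TPM. Such bulk libraries cannot tell fewer cells of a type from less RNA per cell.

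Of the 10 genes, 8 averaged at least 10 counts over the libraries and are called detected, against 49.7% of all protein-coding genes. Ccl8 and Ccl22 stayed under that level. In the table made from the reads, which holds 1.69 times the counts, all 10 genes reached it. Ccl8 had 11, 14 and 15 counts there and Ccl22 had 15, 12 and 19. By mean level, 6 of the 10 stood in the top 10% of protein-coding genes, and their median percentile was 96.6. The median level of the 10 genes was 87.4 TPM, beside 7.32 TPM for the 10952 detected protein-coding genes. Together they summed to 1125, 952 and 1545 TPM in replicates 1, 2 and 3. In counts they made up 0.103%, 0.0715% and 0.126% of the reads assigned to protein-coding genes. Ccl5 alone held 47.9% ± 3.57 (SD, n = 3) of the summed TPM of the 10 genes, followed by Ccl4 with 15.0% ± 2.11 and Ccl7 with 10.2% ± 1.40.

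**Figure D1:**
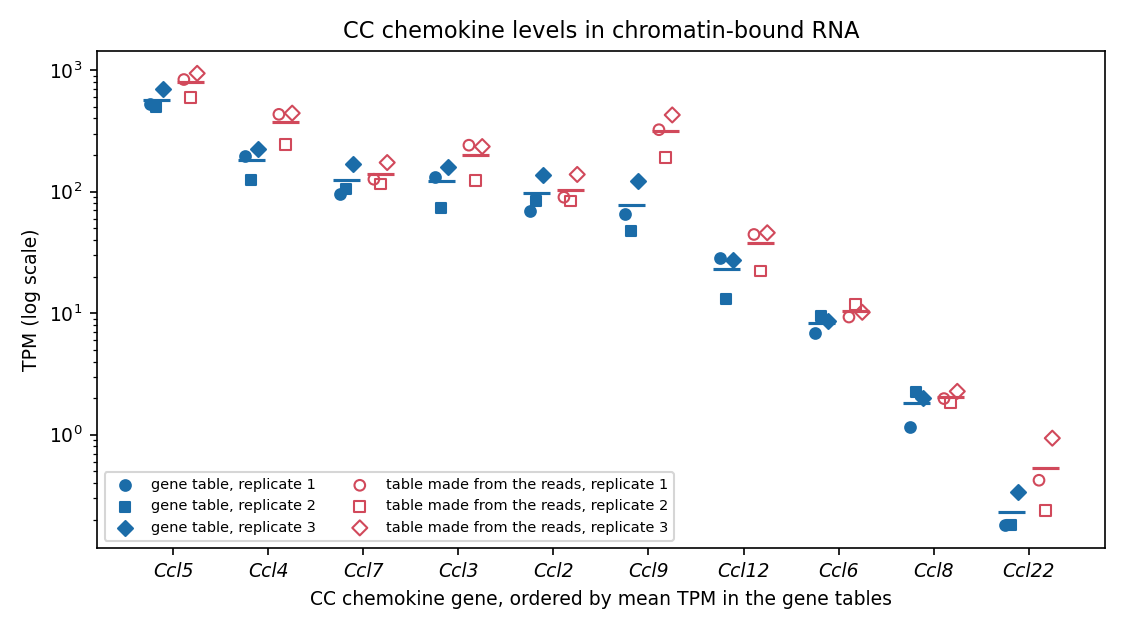
Level of each CC chemokine gene in TPM (log axis) in replicates 1, 2 and 3, from the gene tables (filled) and from the table made from the reads (open), with horizontal lines at the means. Ccl5 lies above all others in both, Ccl4, Ccl7, Ccl3, Ccl2 and Ccl9 lie between 47.5 and 225 TPM in the gene tables, each overlapping the next, and Ccl8 and Ccl22 lie lowest.

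Ccl5 (RANTES), a ligand of CCR1 and CCR3 that attracts T cells and monocytes, had the highest level of the 10 genes. Its gene (ENSMUSG00000035042.2) lies on the minus strand of chromosome 11 at 83525778 to 83530518 (mm10, GENCODE M21). It had 529.6, 494 and 693 TPM in replicates 1, 2 and 3, from 3123, 2516 and 3471 counts. The mean was 572 ± 106 TPM (SD, n = 3), rank 39 among protein-coding genes. The ranges of Ccl5 and of the next gene in order, Ccl4, did not overlap, and the means differed 3.15-fold. T cells and natural killer cells also make Ccl5, and 8 of 10 of their markers were at 0 in every library, with a summed level of 0.03 to 0.14 TPM. In the table made from the reads, Cd3d, a T cell receptor subunit gene, was listed at 15.6 TPM on average, beside 0 in the gene tables.

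Most Ccl5 RNA was assigned to a transcript that runs from exon 2 into intron 2. The protein-coding transcript Ccl5-201 has 3 exons, and Ccl5-202, annotated as a retained-intron transcript of 668 bases, ends 428 bases inside intron 2, which is 3091 bases long (83526065 to 83529155). The sequences below show the point where they part, the last 20 bases of exon 2 in lower case and the 20 bases that follow in capitals. The capitals are exon 3 in Ccl5-201 and the start of intron 2, opening with the GT of the 5′ splice site, in Ccl5-202. The last base of exon 2 is at 83529156.
Ccl5-201: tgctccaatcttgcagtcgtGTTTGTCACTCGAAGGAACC
Ccl5-202: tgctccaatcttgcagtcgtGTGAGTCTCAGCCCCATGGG
Ccl5-202 held 67.6%, 65.1% and 70.3% of the gene's TPM in replicates 1, 2 and 3, a mean of 67.7% ± 2.61 (SD, n = 3). The table made from the reads gave 63.5% ± 3.10. The lead of Ccl5 over the next gene, Ccl4, included this RNA. Ccl5-201 alone had 171, 172 and 206 TPM in replicates 1, 2 and 3, a range that overlapped that of Ccl4 (195, 125 and 225 TPM). From the reads Ccl5-201 had 290, 239 and 327 TPM, below Ccl4 (432, 244 and 442 TPM) in each library. Of 6256 genes with both kinds of transcript, the median retained-intron share was 42.4%, and the share of Ccl5 stood at percentile 86.3. In the table made from the reads the median over 6494 genes was 43.1%, and Ccl5 stood at percentile 78.5. Reads in intron bases may also come from RNA not yet spliced. The share of a retained-intron transcript cannot tell these apart, here or for Ccl2 and Ccl6 below.

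Ccl3 and Ccl4 (MIP-1 alpha and MIP-1 beta), which attract monocytes, T cells and other leukocytes, lie 13.2 kb apart on opposite strands. Ccl4 (ENSMUSG00000018930.3, chromosome 11, 83662584 to 83664683, plus strand) had 195, 125 and 225 TPM from 1245, 709 and 1221 counts. Its mean was 182 ± 50.9 TPM (SD, n = 3). Ccl3 (ENSMUSG00000000982.5, chromosome 11, 83647844 to 83649355, minus strand) had 133, 73.0 and 159.7 TPM from 1047, 523 and 1094 counts, a mean of 122 ± 44.4 TPM. Both genes were lowest in replicate 2. Their ratio moved less than either level: Ccl3 over Ccl4 was 0.683, 0.582 and 0.711 in TPM, 0.659 ± 0.0680 (SD, n = 3). Each has 1 annotated transcript. The table made from the reads put both higher, Ccl4 at 373 ± 112 TPM and Ccl3 at 199 ± 66.5 TPM, with a ratio of 0.531 ± 0.0270. The coding sequences of Ccl3 and Ccl4 were 68.1% identical in a global alignment, the highest identity among the 10 genes. No stretch of 31 bases was shared between any of the 10 genes.

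Of the monocyte chemoattractant protein (MCP) genes, most of which encode ligands of CCR2, the receptor that brings inflammatory monocytes into tissue, Ccl2 and Ccl7 were high, Ccl12 was intermediate and Ccl8 was low. Ccl2 (MCP-1, ENSMUSG00000035385.5, chromosome 11, 82035571 to 82037453, plus strand) had 69.3, 82.9 and 138 TPM from 747, 845 and 1305 counts. Its mean was 96.8 ± 36.5 TPM (SD, n = 3). Ccl7 (MCP-3, ENSMUSG00000035373.2, chromosome 11, 82045712 to 82047525, plus strand), 8.26 kb downstream of Ccl2, had 96.3, 105 and 169.8 TPM from 805, 803 and 1242 counts, a mean of 124 ± 40.2 TPM. In TPM both were highest in replicate 3, and Ccl7 exceeded Ccl2 in each library. Ccl2 over Ccl7 was 0.720, 0.792 and 0.814, a mean of 0.775 ± 0.0491, and 0.745 ± 0.0470 in the table made from the reads.

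Ccl12 (MCP-5, ENSMUSG00000035352.3, chromosome 11, 82101845 to 82103400, plus strand) had 28.4, 13.1 and 27.3 TPM from 132, 51 and 104 counts. Its mean was 23.0 ± 8.54 TPM (SD, n = 3), with replicate 2 below the other libraries. Ccl12 over Ccl2 was 0.410 in replicate 1, 0.158 in replicate 2 and 0.198 in replicate 3, so this pair kept no steady ratio. Ccl8 (MCP-2, ENSMUSG00000009185.2, chromosome 11, 82115185 to 82116799, plus strand) had 5, 8 and 7 counts. In CPM this was 0.362, 0.465 and 0.424, with Wilson 95% intervals of 0.155 to 0.848, 0.236 to 0.919 and 0.205 to 0.876. These intervals overlap and no difference between libraries was detectable at this depth. In TPM Ccl8 had 1.81 ± 0.575, and the table made from the reads gave 2.03 ± 0.219.

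Ccl2, like Ccl5, had RNA assigned to a retained-intron transcript. Ccl2-202 (1096 bases) keeps the whole of intron 2, 325 bases at 82036601 to 82036925. Exon 2 ends at 82036600, and the capitals are exon 3 in Ccl2-201 and intron 2 in Ccl2-202.
Ccl2-201: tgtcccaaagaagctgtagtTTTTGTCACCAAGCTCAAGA
Ccl2-202: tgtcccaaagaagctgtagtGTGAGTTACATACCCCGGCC
In both Ccl5-202 and Ccl2-202 the first 6 bases of intron sequence are GTGAGT, and how often other introns open this way was not counted. Ccl2-202 held 56.9%, 58.1% and 52.0% of the TPM of Ccl2 in replicates 1, 2 and 3, a mean of 55.6% ± 3.23 (SD, n = 3), at percentile 70.4 of the genes with both kinds of transcript. In the table made from the reads its share was 45.3% ± 1.10, below that of Ccl2-201, and stood at percentile 53.2. Which transcript of Ccl2 leads in TPM therefore differed between the tables, while Ccl5-202 led in both. In counts Ccl2-202 led in both, with 651, 853 and 1177 from the reads beside 526, 681 and 1014 for Ccl2-201. Ccl7 and Ccl8 have 1 annotated transcript each. Of Ccl12, Ccl12-201 held 97.0% ± 3.02 in the alignment and 73.8% ± 3.43 in the table made from the reads, where Ccl12-202, which has no base outside the exons of Ccl12-201, took the rest.

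Ccl9 and Ccl6, ligands of CCR1 with an exon more than the other 8 genes, lie 9.24 kb apart on the minus strand of chromosome 11 and differed in level. Ccl9 (MIP-1 gamma, ENSMUSG00000019122.8, 83572919 to 83578636) had 65.1, 47.5 and 121 TPM from 2311, 1866 and 4389 counts, a mean of 78.0 ± 38.5 TPM (SD, n = 3). Replicate 3 had the highest value and replicate 2 the lowest. Ccl6 (ENSMUSG00000018927.3, 83587882 to 83593087) had 6.91, 9.41 and 8.58 TPM from 60, 109 and 83 counts, a mean of 8.30 ± 1.27 TPM. Of the 8 detected genes among the 10, it alone had its highest TPM in replicate 2. Ccl6 over Ccl9 was 0.106, 0.198 and 0.0707. Their coding sequences were 64.6% identical. The antisense gene E230016K23Rik spans Ccl6 but shares no exonic base with it, and had 7, 11 and 11 counts.

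The level of Ccl9 depended on how reads were divided between its transcripts. Ccl9-201 is the coding transcript of 3006 bases, and Ccl9-202, of 398 bases, starts at an exon of its own inside intron 1. The sequence below joins the last 20 bases of that exon (lower case, ending at 83577104) to the next exon (capitals).
Ccl9-202: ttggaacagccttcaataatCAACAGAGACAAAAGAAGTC
From the alignment, Ccl9-202 had 17.9, 0 and 4.21 counts in replicates 1, 2 and 3, and from the reads it had 999, 769 and 1492. In counts from the reads Ccl9-201 still led, with 2654, 2556 and 5464. Ccl9-201 held 96.1% ± 5.28 of the gene's TPM in the first case and 18.9% ± 2.11 in the other. The TPM of the whole gene was 78.0 ± 38.5 from the alignment and 313 ± 119 from the reads, a ratio of 4.02, although the counts rose only 1.63-fold, near the median of 1.68 over 10934 protein-coding genes. The part of the other 3 exons of Ccl9-202, which lie within exons of Ccl9-201, was not tested.

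**Figure D2:**
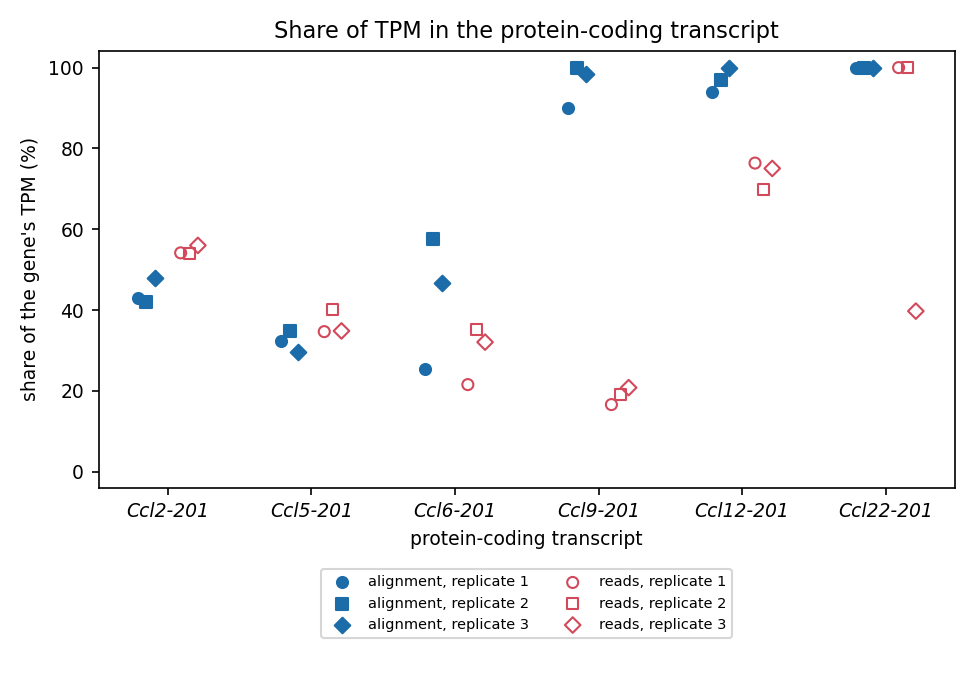
Share of each gene's TPM in its protein-coding transcript (percent) in replicates 1, 2 and 3, for the 6 CC chemokine genes with more than 1 annotated transcript, from the alignment (filled) and from the reads (open). The share of Ccl9-201 falls from a mean of 96.1% to 18.9% between the tables, whereas Ccl5-201 stays below 50% in both.

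Ccl6 has a coding transcript, Ccl6-201, and 2 retained-intron transcripts, Ccl6-202 and Ccl6-203. Ccl6-203 keeps 284 bases of intron 2. Ccl6-201 held 25.5%, 57.6% and 46.7% of the gene's TPM in replicates 1, 2 and 3, and the SD of 16.3 percentage points was the widest among the coding transcripts in the gene tables. These shares rest on 30.4, 91.0 and 63.5 counts of Ccl6-201. The 2 retained-intron transcripts together held 55.1% of the mean level.

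Ccl22 (MDC, ENSMUSG00000031779.3, chromosome 8, 94745590 to 94751699, plus strand), a ligand of CCR4 known from dendritic cells and alternatively activated macrophages, had the lowest level of the 10 genes. It had 5, 5 and 9 counts and 0.18, 0.18 and 0.34 TPM. In CPM this was 0.362, 0.291 and 0.545, with Wilson 95% intervals of 0.155 to 0.848, 0.124 to 0.681 and 0.287 to 1.04. The intervals overlap. The table made from the reads gave 0.532 ± 0.362 TPM. Ccl17, the other ligand of CCR4 among the CC chemokines, had 0, 1 and 0 counts. Dendritic cell markers summed to 5.44, 10.4 and 4.75 TPM, with 4 of 10 detected and Cd209a at 0 in every library, and the highest was Batf3 at 5.18 ± 2.68 TPM, ahead of Clec9a at 0.660 ± 0.215 TPM and Zbtb46 at 0.423 ± 0.163 TPM. Their part in the Ccl22 counts was not tested.

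Ordered by mean TPM, the genes ran Ccl5, Ccl4, Ccl7, Ccl3, Ccl2, Ccl9, Ccl12, Ccl6, Ccl8 and Ccl22. Neighbours from Ccl9 downward did not overlap: Ccl9 exceeded Ccl12 by 3.40-fold, Ccl12 exceeded Ccl6 by 2.77-fold, Ccl6 exceeded Ccl8 by 4.59-fold and Ccl8 exceeded Ccl22 by 7.76-fold in TPM. The last of these folds rests on 5 to 9 counts a library for both genes, and the table made from the reads gave 2.03 TPM for Ccl8 and 0.532 TPM for Ccl22. Each pair of neighbours from Ccl4 to Ccl9 had overlapping ranges, although the range of Ccl4 (125 to 225 TPM) lay above that of Ccl9 (47.5 to 121 TPM). In the gene tables Ccl4 was above Ccl7, and Ccl2 above Ccl9, in 3 of 3 libraries. Ccl7 was above Ccl3 in 2 of 3, with means 1.01-fold apart, and Ccl3 was above Ccl2 in 2 of 3. In CPM, which does not divide by length, Ccl9 moved to the position after Ccl5, and 5 of the 10 genes kept their rank. In the table made from the reads, 7 of the 10 genes kept their rank and Ccl9 moved to rank 3. Its 323, 190 and 427 TPM there exceeded Ccl2 (89.9, 83.7 and 138 TPM), Ccl7 and Ccl3 in each library. Ccl3 was above Ccl7 in each library there, and the ranges of Ccl4 (244 to 442 TPM) and Ccl9 overlapped.

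Apart from Ccl22, the genes formed a pair of arrays on chromosome 11, 1409 kb apart. The array from Ccl2 to Ccl8 spans 81.2 kb, and all 4 genes lie on the plus strand. Levels were uneven along the array: Ccl2 and Ccl7 at its start had means of 96.8 and 124 TPM, and Ccl8 at its end had 1.81. Between Ccl7 and Ccl12 lies Ccl11 (eotaxin), an eosinophil attractant, which had 3, 4 and 6 counts and 0.373 ± 0.153 TPM (SD, n = 3). The array from Ccl5 to Ccl4 spans 138.9 kb, with its highest levels at either end and Ccl6 lowest of the 5. The protein-coding gene Rpl9-ps1 between Ccl6 and Ccl3 had 0, 1 and 3 counts, and Gm17268, antisense over Ccl2, had 0 counts in every library. Some close neighbours differed in level and others overlapped. The ranges of Ccl9 and Ccl6, 9.24 kb apart, and of Ccl12 and Ccl8, 11.8 kb apart, did not overlap. Those of Ccl2 and Ccl7, 8.26 kb apart, and of Ccl3 and Ccl4, 13.2 kb apart, did.

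**Figure D3:**
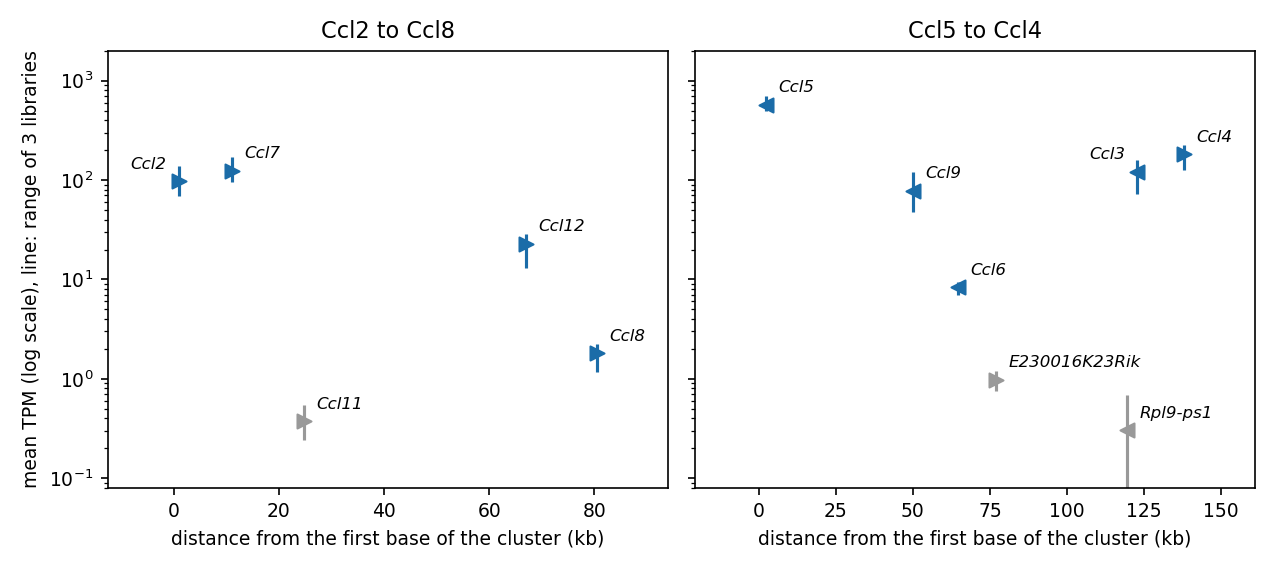
Mean TPM (log axis) of genes in the arrays from Ccl2 to Ccl8 and from Ccl5 to Ccl4 against distance from the first base of each array (kb), with CC chemokines examined here in blue and other genes in grey, arrowheads for the strand and lines for the range of the 3 libraries. Ccl11 lies at 0.373 TPM between Ccl7 and Ccl12; Gm17268, at 0 in every library, is not drawn, and the line of Rpl9-ps1 runs to the axis because replicate 1 was at 0.

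RefSeq promoter sequence (GRCm38.p6) was at hand for 6 of the 10 genes, Ccl3, Ccl6, Ccl8, Ccl9, Ccl12 and Ccl22, from 250 bases before to 50 bases after the start. It was searched on both strands for TATAAA, the AP-1 motif TGANTCA, the interferon-stimulated response element core GAAANNGAA and the kB consensus. The 60 bases before the start are shown for the genes with a match there, the match in capitals.
Ccl12 (chr11:82101785-82101844, plus strand): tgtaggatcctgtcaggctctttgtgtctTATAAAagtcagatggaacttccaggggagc
Ccl8 (chr11:82115125-82115184, plus strand): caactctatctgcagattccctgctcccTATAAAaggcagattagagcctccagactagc
Ccl9 (chr11:83578637-83578696, minus strand): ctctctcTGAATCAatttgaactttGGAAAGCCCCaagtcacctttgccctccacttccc
Ccl3 (chr11:83649379-83649438, minus strand): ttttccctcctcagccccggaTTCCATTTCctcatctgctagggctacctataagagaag
TATAAA began at -31 in Ccl12 and at -32 in Ccl8, counted from the start. Ccl12 had 23.0 TPM on average and Ccl8 had 1.81, and the part of the motif in either level was not tested. Ccl9 had a kB match at -35 to -26 and an AP-1 match at -53 to -47, and also TATAAA farther upstream, where a match on either strand overlaps at -94 to -87. Ccl3 had the response element core at -39 to -31, on the reverse strand, counted from the RefSeq start. TATAAA was found in 3 of the 6 promoters and in 13.6% of 32851 promoters of the same length. The kB, AP-1 and response element motifs were each found in 1 of the 6, and in 8.46%, 7.81% and 8.56% of all promoters. Matches describe the letters only.

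The 3 libraries differed in most CC chemokine genes by more than counting error. In a chi-square test of rounded counts against Poisson sampling with TMM-scaled library sizes, adjusted by Benjamini-Hochberg over the 14330 detected genes, 7 of the 8 detected genes passed at 0.05, beside 54.9% of all genes tested. Counts this deep pass often: among genes that averaged 500 counts or more, 85.2% passed, and so did all 6 CC chemokine genes at that depth. The call is thus shared with most genes of that depth. The adjusted p was 1.10e-46 for Ccl2, 2.20e-89 for Ccl3, 3.60e-81 for Ccl4, 7.46e-103 for Ccl5, 9.36e-41 for Ccl7 and 1.17e-13 for Ccl12. Ccl9 had the largest statistic of the 8, a chi-square of 1571. Ccl6 did not pass (adjusted p = 0.247).

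The size of the spread differed between the genes. The highest TMM-scaled CPM exceeded the lowest by 3.49-fold for Ccl12, 2.80-fold for Ccl9, 2.70-fold for Ccl3 and 2.37-fold for Ccl4. It was 1.84-fold for both Ccl2 and Ccl7, 1.68-fold for Ccl5 and 1.35-fold for Ccl6, beside a median of 1.37-fold over protein-coding genes tested. edgeR's tagwise biological coefficient of variation estimates the spread left after counting error. With 3 libraries it is drawn toward a value shared across genes (0.223 in common), so it is not each gene's own spread alone. It was 0.354 for Ccl12, at percentile 96.5 of protein-coding genes tested. It was 0.296 for Ccl3 and for Ccl9 and 0.267 for Ccl4. For Ccl2, Ccl5, Ccl6 and Ccl7 it lay between 0.218 and 0.225, near the median of 0.209. Ccl6 had such a value although it did not pass the chi-square test.

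Replicate 2 was the lowest library for most of these genes under each scaling. With TMM scaling it was the lowest library for 7 of the 8 detected genes, while 36.0% of protein-coding genes tested were lowest there, and Ccl6 was instead highest there. The count was 7 of 8 with DESeq2 size factors, beside 37.3% of protein-coding genes tested, and 7 of 8 with CPM, beside 22.8%. It was 6 of 8 with TPM rescaled over protein-coding genes, beside 18.1%, and 5 of 8 with TPM as deposited, beside 14.1%. With TPM as deposited Ccl2, Ccl7 and Ccl6 were lowest in replicate 1, as were 64.0% of protein-coding genes tested. Without replicate 2, 5 of the 8 genes passed the chi-square test, beside 27.9% of all genes tested, and Ccl3 and Ccl5 were among those that did not (adjusted p = 0.169 and 0.655 by the chi-square test with Benjamini-Hochberg adjustment). Replicate 2 had the lowest RNA input, 250 ng, and the deepest library, and their part in this was not tested.

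**Figure D4:**
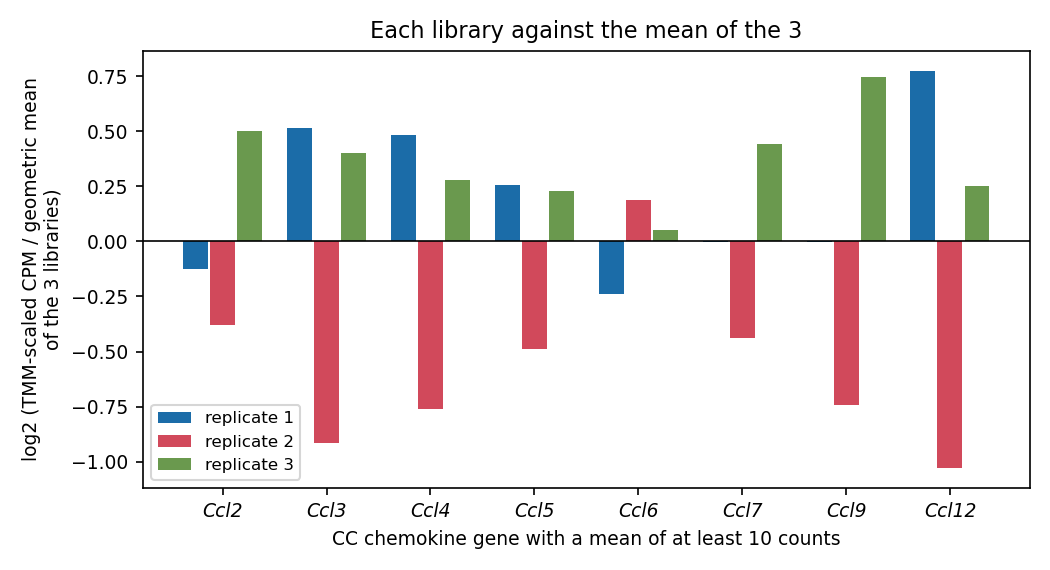
TMM-scaled CPM of the 8 detected CC chemokine genes in each library as the log2 ratio to the geometric mean of the 3 libraries, with 1 bar per replicate. Replicate 2 lies below 0 for 7 genes and above 0 for Ccl6; the bars of replicate 1 for Ccl7 and Ccl9 are near 0 and hardly visible, and with TPM as deposited replicate 2 is lowest for 5 of the 8.

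Of 11 CC receptor genes 6 were detected. Ccr1, the receptor for Ccl3, Ccl5, Ccl6 and Ccl9, had 2.77 ± 0.953 TPM (SD, n = 3) and Ccr9, the receptor for Ccl25, had 2.64 ± 0.600 TPM. Ccr2, the receptor for Ccl2, Ccl7 and Ccl12, had 0.517 ± 0.0981 TPM in the gene tables and 5.37 TPM from the reads, so its level depends on the table. Among 4 atypical receptors, Ccrl2, best known for binding the attractant chemerin, had 76.9 ± 28.4 TPM, with 71.3, 51.7 and 108 TPM in replicates 1, 2 and 3. Ackr4, a scavenger of Ccl19, Ccl21 and Ccl25, had 1.56 ± 0.310 TPM.

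Few CC ligands outside the 10 genes were seen. Of 14 asked for, 13 were found by symbol and 1 was detected: Ccl25, a ligand for gut-homing T cells, at 19.5 ± 5.10 TPM (SD, n = 3). Another 7 were at 0 in every library. Ccl24 had 0, 1 and 0 counts in the gene tables but 6.15 TPM from the reads.

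Genes that carry the signal from these receptors were all present. All 17 found of 18 asked for were detected, led by Rgs1, which shuts off G protein signalling, at 451 ± 211 TPM (SD, n = 3), Arrb2, a beta-arrestin, at 345 ± 68.0 TPM and Dock2, an activator of Rac in migrating leukocytes, at 345 ± 20.8 TPM. Of the 17, all passed the chi-square test, which 54.9% of all genes tested and 85.2% of those with 500 counts or more passed. Of 15 factors known to induce chemokine genes, all were detected and 14 passed, with Irf1 at 756 ± 128 TPM and Irf7 at 400.0 ± 21.1 TPM. With TMM scaling 12 of these 15 factors and 4 of 10 macrophage markers were lowest in replicate 2, beside 36.0% of protein-coding genes tested. With TPM as deposited 7 of 15 and 1 of 10 were, beside 14.1%. All 5 regulators of mRNA decay were detected and 3 passed. They were led by Zfp36, which binds AU-rich 3′ UTRs and speeds decay, at 213 ± 50.7 TPM, ahead of Zc3h12a, a ribonuclease, at 43.4 ± 5.09 TPM and Zfp36l1 at 22.3 ± 2.39 TPM. Of 10 neutrophil markers, 3 were at 0 in every library and 1 was detected, Csf3r at 103 ± 16.3 TPM, which macrophages can also express.

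By Euclidean distance in log2(TPM + 1) over the 3 libraries, the genes most like Ccl5 were Srsf5 (0.13), a splicing factor gene, and Ifi204 (0.26), an interferon-inducible gene. Those most like Ccl4 were Irak2 (0.19), a kinase gene of Toll-like receptor signalling, and Msn (0.22), which links actin to the membrane. Those most like Ccl7 were Cd14 (0.11), a co-receptor gene for lipopolysaccharide, and Bcl2a1b (0.15), a survival gene of a family of near-identical copies whose reads may be shared. Cd14 had 100.1, 100.3 and 161 TPM beside 96.3, 105 and 169.8 for Ccl7. This measure follows the level as well as the pattern, and 3 libraries limit it.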

How the data were processed

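Total RNA-seq of chromatin-bound RNA was analysed in 3 libraries of 1 group. Per the file headers, the authors deposited gene and transcript tables that hold expected counts and TPM and follow the RSEM layout. Reads had been aligned to the transcriptome for them. They also deposited a transcript table of estimated counts and TPM in the layout of kallisto, which was summed to genes here and lacks 86 genes. The build is mm10, per the labels, and the identifiers match GENCODE M21. Which programs and strand setting were used is not given in the sources used here. Another deposited column holds the posterior SD of each count, which was 0 for all 10 genes and for 67.4% of genes tested.

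Entries that name no gene held 1.13%, 0.324% and 0.279% of counts and were left out. Depth was 13802716, 17187524 and 16502809 expected counts, and 21006413, 30933271 and 28138803 estimated counts in the table made from the reads. Counts were rounded for the chi-square test, edgeR 4.0.16 (TMM factors, tagwise dispersion, intercept only) and DESeq2 1.42.0 (size factors), in R 4.3.3, and the test was tested on simulated data. Percentiles rank mean log2(TPM + 1) among protein-coding genes. Intervals are Wilson 95%, and they and the limits for 0 cover counting error only, as reads carry no molecular identifiers. No contrast exists with 1 group.

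The 10 genes, the lists and the tests were chosen with earlier results of these data known. The count over genes with 500 counts or more and the counts of genes lowest in a library were added after the data were seen. The text names all 10 genes, the 3 highest members of each list apart from some that are not reported here, genes inside the arrays and the 2 genes most like each of the 3 highest. Ccr2, Ccl17, Ccl24, Cd3d, Cd209a and E230016K23Rik were named after their values were seen. Protein identity was not computed, and coding sequence identity was used in its place. Adrbk1 and Ccl21d were not found by symbol, and the former is an older symbol of Grk2. Alternatives were the table made from the reads, CPM, rescaled TPM, a pseudocount of 0.1, count minimums of 1 and 30, only detected genes, DESeq2 or total count scaling, no filter, and leaving out each replicate.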

Additional observations from a re-analysis of the deposited data

How the results depend on the processing

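The summed level of the 10 genes was 1207 TPM, 1968 in the table made from the reads and 4011 when TPM was rescaled over protein-coding genes. Their median percentile was 96.6, and it was 89.8 in CPM and 94.8 among detected genes only. In CPM 5 genes kept their rank by TPM, and in the table made from the reads 7 did. The number of all genes passing the chi-square test was 7863, against 13023 in the table made from the reads, which tested 23649 genes. It was between 3913 and 6325 when a replicate was left out, and lowest without replicate 2. Among the 10 genes 7 passed under every setting of this test except without replicate 2, where 5 did. The cause was not tested. In all, 27 recomputed values of the main results stayed within the spread between replicates or, for counts of genes, within 1.5-fold, and 7 did not. For single genes and transcripts 52 did and 22 did not. By mean share of TPM, the leading transcript changed between the tables from Ccl2-202 to Ccl2-201, from Ccl6-201 to Ccl6-202 and from Ccl9-201 to Ccl9-202. By counts from the reads, Ccl2-202 and Ccl9-201 still led in each library. Ccl6-201 did not lead in replicate 1 of the alignment, with 25.5% beside 38.1% for Ccl6-202. Depth limits Ccl8 and Ccl22, with 5 to 9 counts a library in the gene tables. The number of detected genes was 8 there and 10 in the table made from the reads. No paired analysis was possible because the series has 1 group.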

Other observations

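The pentamer ATTTA, the core of AU-rich elements, was counted in the longest 3′ UTR among each gene's coding transcripts, where it had at least 50 bases. This count was chosen after the levels had been seen. Ccl12 held 5 in 167 bases (29.9 per kb, percentile 99.96 of 20659 genes) and Ccl3 held 5 in 409 bases (12.2 per kb, percentile 99.4). Ccl4 held 2 in 302 bases (6.62 per kb) and Ccl7 held 2 in 435 bases (4.60 per kb). Ccl5, the highest gene, and Ccl8, among the lowest, held none in 199 and 165 bases. At least 1 pentamer was found in 8 of the 10 genes and in 66.2% of all genes, and 7 of the 10 lay above the median density of 1.28 per kb. This describes letters in the reference and says nothing of RNA stability in these cells.

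Short stretches of some CC chemokine transcripts occur in other genes. Of all stretches of 31 bases, 3.98% of those in Ccl9, 1.02% of those in Ccl6 and 0.539% of those in Ccl5 were also found in another gene, and none of those in the other 7 genes were. None was shared between members of the 10.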
